A study of Mus musculus with 48 samples.

Results

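The neutrophils described here were sorted from mouse breast tumours of 4 lines and compared between lines that the authors' column names mark Epi and lines that they mark Mes. They are 12 of the 48 libraries of the series: 6 Epi libraries, 3 from 2208L and 3 from AT3 tumours, and 6 Mes libraries, 3 from T11 and 3 from E0771 tumours. The rule for the members uses cell type and line suffix only and no measured value, but it was set with earlier results of these data known. T11 and 2208L are labelled BALB/C, and E0771 and AT3 C57BL/6, so each strain holds 1 Epi and 1 Mes line. The sort took live CD45+ CD11b+ Ly6G+ cells with medium to low Ly6C from dissociated tumours. The age and sex of the mice, and whether the 3 libraries of a tumour came from separate mice, are not given in the sources used here, so the p-values measure the spread between these libraries. Each suffix rests on 2 lines, and a difference of suffix cannot be told apart from other differences between the lines.

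E0771 neutrophil 1 and E0771 macrophage 1 carry the label BALB/C, unlike the other E0771 libraries of the same cell types. Of 40 genes with the largest strain difference in cultured lines, 7 also kept that order without overlap in T11, 2208L and AT3 neutrophils. E0771 neutrophil 1 lay on the C57BL/6 side for 6 of the 7, E0771 neutrophil 2 for 5 and E0771 neutrophil 3 for 6, and in macrophages, where 6 of the 40 genes could be read, E0771 macrophage 1 did for 5, E0771 macrophage 2 for 4 and E0771 macrophage 3 for 5. The 7 genes were Eno1b, Rhox5, Ifi202b, Rpl29, Col4a5, Irx2 and Ctgf. The cultured E0771 line, as C57BL/6, helped to choose the 40, and the part of tumour cell RNA in the sorts was not tested. The check therefore cannot decide the strain of the mouse. Both libraries were kept with their tumour.

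Neutrophils are short-lived granulocytes that leave the bone marrow with their granule proteins already made. They sense chemokines such as those read by Cxcr2, take up antibody-coated particles through Fc receptors and produce superoxide with the NADPH oxidase. In tumours they meet low oxygen, growth factors such as G-CSF and GM-CSF and products of macrophages, and some acquire genes of T cell suppression such as Arg1.

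Library quality differed between the tumours and bears on every direction below. Rn45s, the ribosomal RNA precursor, took 26.8% to 70.3% of the counts, and 632490 to 1185233 counts per Epi and 470712 to 669300 per Mes library lay outside it (exact permutation p = 0.01, adjusted 0.0475). CPM here are counts scaled to a total of 1000000 outside Rn45s. Olfactory and vomeronasal receptor genes, which are silent in most tissues and stand here for background, summed to 5165 ± 1195 CPM in 2208L, 10207 ± 3445 in AT3, 15149.6 ± 3049 in T11 and 8087 ± 979 in E0771 neutrophils (SD, n = 3 each). Genes whose level per base of exon reached 10 times the receptor level count as above background, which held for 1981 of the 17202 genes tested. Both levels are means over the 12 neutrophil libraries. A gene that is high in the libraries of 1 suffix only can therefore pass, and shares of rising and falling genes hold for this selected set. Those genes took 45.9% to 50.8% of the counts in 2208L, 33.9% to 37.7% in E0771 and 18.02% to 28.8% in T11 libraries. In AT3 they took 31.5% in replicate 1, 55.6% in replicate 2 and 45.1% in replicate 3, and AT3 neutrophil 1 stands apart in this respect. The share was higher in Epi libraries by 0.63 log2 on average (exact permutation p = 0.02, adjusted 0.0475, 2-sided within strains over 19 sums). The smallest p that these permutations can give is 0.005. As the genes entered by their mean over these same libraries, the p-value is not an independent test of the share.

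The choice of genes that set the size factors moved the zero point. With TMM factors from all genes the median difference of the genes above background was 0.95 on the log2 scale, and with TMM factors from the genes above background alone it was 0.017. Differences are therefore given with expressed-gene factors, the second set, and where stated with all-gene factors, the first. The words rose and fell are used only for genes that passed an adjusted p of 0.05 in the edgeR quasi-likelihood test with both sets, in the same direction. Differences are Epi minus Mes, the mean of 2208L minus T11 and AT3 minus E0771.

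Markers of the sorted cell type were present: 12 of 13 listed neutrophil genes are in the table, all 12 were above background, and none was at 0. Their summed level was 15708 to 35878 CPM in Epi and 5004 to 18304 in Mes libraries (exact permutation p = 0.015, adjusted 0.0475). Ly6g, the gene of the sort marker, was not analysed here. The 11 macrophage markers, of which 9 were above background and none at 0, summed to 3028 to 7717 CPM in Epi and 858 to 1557 in Mes libraries (exact permutation p = 0.005, adjusted 0.0475), with no overlap. The complement genes C1qa, C1qb and C1qc, which mark macrophages, summed to 2579 ± 459 CPM in 2208L, 1483 ± 415 in AT3, 423 ± 234 in T11 and 515 ± 11.0 in E0771 neutrophils. In macrophages sorted from the same tumours the sum was higher, so that the neutrophil level was 33.1%, 16%, 22.1% and 9.1% of it in the same order. Of the other marker lists 4 monocyte, 2 epithelial, 2 mesenchymal and 2 platelet genes were above background, and no listed marker of dendritic cells, eosinophils, mast cells, T cells, NK cells, B cells, endothelium or red cells was. Summed mesenchymal markers stood at 385 to 1051 CPM in Epi and 771.4 to 1086 in Mes libraries and were lower in Epi libraries (log2 -0.49, exact permutation p = 0.02, adjusted 0.0475). The sums of the B cell markers (log2 -0.99, exact permutation p = 0.015, adjusted 0.0475) and of the endothelial markers (log2 -0.99, exact permutation p = 0.02, adjusted 0.0475), none of them above background, were also lower. Epithelial markers summed to 699 ± 30.1 CPM in 2208L, 281 ± 12.8 in T11, 156 ± 73.2 in AT3 and 244 ± 0.801 in E0771 libraries. In these bulk libraries more cells of a type and more RNA per cell cannot be told apart.

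**Figure D1:**
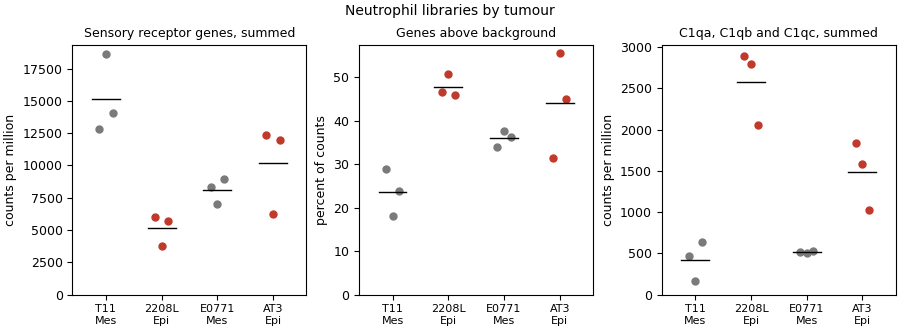
Summed CPM of olfactory and vomeronasal receptor genes, percent of counts in genes above background, and summed CPM of C1qa, C1qb and C1qc in each neutrophil library, by tumour, with Epi tumours in red, Mes tumours in grey and the mean of 3 libraries as a line. T11 has the most receptor signal and the smallest share of counts above background, AT3 neutrophil 1 lies at 31.5% below the other AT3 libraries, and the C1q sums of the 6 Epi libraries are all above those of the 6 Mes libraries.

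Over all 17202 genes, 2953 (17.2%) passed as higher and 2031 (11.8%) as lower in Epi neutrophils with all-gene factors, and 419 (2.44%) as higher and 10365 (60.3%) as lower with expressed-gene factors. Both sets agreed on 419 higher genes (2.44%) and 2031 lower genes (11.8%). Among the 1981 genes above background, both sets called 370 higher (18.7%) and 22 lower (1.11%). When only these genes were tested, with factors from them alone, 308 passed as higher and 285 as lower. A gene counts as consistent in both strains where the mean difference and each same-strain difference passed with 1 sign. All-gene factors gave 368 consistent genes, expressed-gene factors 272, and 99 were in both sets. Of these 99, 53 were above background, 52 higher (2.62% of the 1981) and 1 lower (0.0505%). The other 46 lay below the background limit, 45 of them lower, at 2.10 to 9.24 times the receptor level per base, and are not described further. For 39 of the 52 higher genes the 6 Epi libraries were all above the 6 Mes libraries, as for 9.79% of all genes above background, but the 52 were chosen in these same libraries and nothing is read from the difference. Their median difference was 1.28 with expressed-gene and 2.21 with all-gene factors. With the tests and factors restricted to genes above background, 80 genes were consistent and higher and 28 consistent and lower.

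The set depends on single libraries. Without AT3 neutrophil 1, the library that stands apart, 122 genes above background were consistent under both sets of factors, all 53 among them. Without E0771 neutrophil 1, 2 or 3 there were 16, 16 and 20, and without AT3 neutrophil 2 or 3 there were 32 and 29. Leaving out T11 neutrophil 3 left 34, and leaving out 2208L neutrophil 1 left 35. Apoe, Cd52, Clec5a, Cotl1, Cx3cr1, Fcgr2b, Fn1, H2-Ab1, H2-Eb1, Lyz2 and Prdx5 were called in each of the 12 fits that left out 1 library, and 22 of the 52 higher genes in at least 9.

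**Figure D2:**
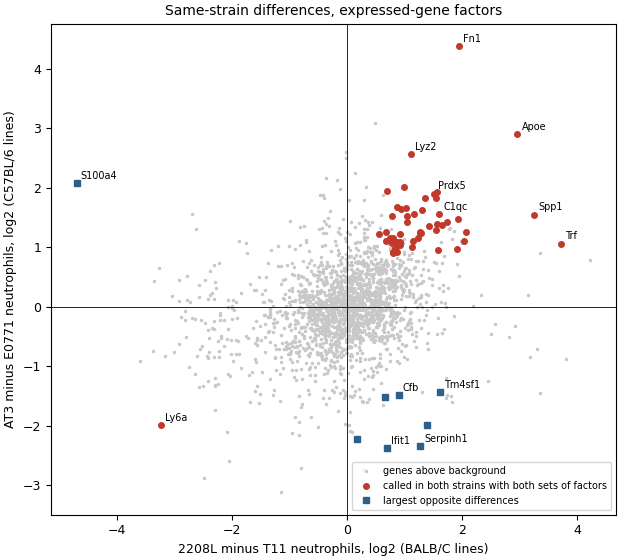
Log2 difference between 2208L and T11 neutrophils (x axis) and between AT3 and E0771 neutrophils (y axis), with expressed-gene factors, for the 1981 genes above background (grey), the 53 consistent genes (red) and the 8 genes with the largest opposite differences (blue squares). 52 red points lie at the upper right and Ly6a alone at the lower left, and Fn1 reaches 1.94 and 4.39.

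The genes with the largest rise encode secreted proteins of matrix, lipid and iron transport. Fn1, fibronectin, stood at 3919, 4507 and 3647 CPM in the 2208L, 4459, 4952 and 4778 in the AT3, 1141, 304 and 431 in the T11 and 188, 130.0 and 295 in the E0771 libraries. All 6 Epi libraries were above all 6 Mes libraries, and the difference was log2 3.17 ± 0.22 (SE) with expressed-gene factors and 4.02 ± 0.48 with all-gene factors (edgeR adjusted p = 8.91e-10 with the former). It was 1.94 between 2208L and T11 and 4.39 between AT3 and E0771. Apoe, a lipoprotein component that carries cholesterol, stood at 3109.9, 3135 and 1979 CPM in the 2208L, 1638, 1270.0 and 988 in the AT3, 245, 167 and 188 in the T11 and 140.3, 136 and 206 in the E0771 libraries. It rose by 2.93 ± 0.19 (edgeR adjusted p = 5.89e-10), with 2.96 between 2208L and T11 and 2.91 between AT3 and E0771, and with all-gene factors these were 4.36 and 3.25. The interaction did not pass with either set (edgeR adjusted p = 0.93 and 0.291). Spp1, the matrix cytokine osteopontin, stood at 2794, 3085 and 2166 CPM in the 2208L, 386, 503 and 341 in the AT3, 252, 91.7 and 149 in the T11 and 154, 111 and 110.5 in the E0771 libraries. It rose by 2.4 ± 0.17, and the difference was larger in the BALB/C pair by 1.70 ± 0.34 (SE, edgeR adjusted p = 0.00406). Trf, the iron carrier transferrin, stood at 1647, 1871 and 2049 CPM in the 2208L, 99.6, 162 and 106 in the AT3, 85.6, 67.3 and 88.7 in the T11 and 57.8, 44.8 and 53.1 in the E0771 libraries. Here too the groups did not overlap, the rise was 2.39 ± 0.16, and the BALB/C pair exceeded the C57BL/6 pair by 2.65 ± 0.32 (SE, edgeR adjusted p = 3.42e-05). Tgm2, a transglutaminase that cross-links matrix proteins, rose by 0.98 ± 0.16, and Abca1, which exports cholesterol to apolipoproteins, by 1.08 ± 0.15. Of the list of matrix proteases and wound factors 5 of 12 members above background rose, against 18.7% of all, among them Fn1, Spp1 and Tgm2. The list median was 0.22 with expressed-gene and 1.16 with all-gene factors. Of the list of lipid uptake and storage genes 1 of 6 rose, Abca1, which is near the 18.7% of all genes above background.

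Of the 9 macrophage markers above background 7 rose in Epi neutrophils, 6 of them consistently in both strains, against 18.7% and 2.62% of all genes above background. Lyz2, lysozyme, which neutrophils and macrophages both make, stood at 2999, 3146 and 2701 CPM in the 2208L, 3788, 4048 and 2467 in the AT3, 1117, 448 and 842 in the T11 and 535, 481 and 561 in the E0771 libraries. All Epi libraries were above all Mes libraries, and the rise was 1.84 ± 0.17 (edgeR adjusted p = 1.31e-07). Cx3cr1, the fractalkine receptor of monocytes and macrophages, stood at 433, 385 and 369 CPM in the 2208L, 218, 225 and 146 in the AT3, 66.2, 57.1 and 105 in the T11 and 33, 44.8 and 63.7 in the E0771 libraries. It rose by 1.75 ± 0.20, again without overlap. C1qa, C1qb and C1qc, the subunits of complement C1q, rose by 1.59 ± 0.24, 1.66 ± 0.20 and 1.58 ± 0.21. Csf1r, the receptor for the macrophage growth factor M-CSF, rose by 0.95 ± 0.16, Cd81, a tetraspanin, by 1.51 ± 0.26, and Fcrls, an Fc receptor-like protein, by 1.68 ± 0.28. Emr1, the gene of the macrophage marker F4/80, stood at 159, 183 and 167 CPM in the 2208L, 139, 123 and 113 in the AT3, 87.2, 97.8 and 105 in the T11 and 116, 143 and 117 in the E0771 libraries. Its difference was -0.085 ± 0.18 with expressed-gene factors (edgeR adjusted p = 0.684) and 0.82 with all-gene factors, so its sign depended on the factors.

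MHC class II molecules present peptides to CD4 T cells. H2-Aa and H2-Ab1 encode the chains of I-A, H2-Eb1 a chain of I-E, and the promoters of such genes carry a conserved CCAAT sequence known as the Y box. H2-Ab1 stood at 694, 707 and 510.2 CPM in the 2208L, 370.0, 726 and 347 in the AT3, 115, 55.0 and 266 in the T11 and 124, 128 and 102 in the E0771 libraries. Every Epi library was above every Mes library, and the rise was 1.59 ± 0.23 (edgeR adjusted p = 4.57e-05). H2-Aa rose by 1.48 ± 0.22 and H2-Eb1 by 1.46 ± 0.23, and all 3 were consistent in both strains. Cd74, the invariant chain, stood at 2771, 2832 and 2435 CPM in the 2208L, 708, 1898 and 761 in the AT3, 291, 137 and 738 in the T11 and 433, 547 and 389 in the E0771 libraries, with overlap of AT3 and T11 libraries. It rose by 1.54 ± 0.25 and H2-DMb1, a chain of the peptide exchange factor, by 0.95 ± 0.36, but neither was consistent in both strains with both sets. Of the 7 listed genes 6 were above background and all 6 rose, against 18.7% of genes above background. The list median was 1.47 with expressed-gene and 2.44 with all-gene factors, against 0.017 and 0.95 over all genes above background.

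The 250 bases before the annotated start are shown for the class II genes that moved together and have an entry in the RefSeq promoter table (build GRCm38.p6), with CCAAT on either strand in capitals, 5′ to 3′ along the gene. H2-Ab1 is named only.
H2-Aa (chr17:34287824-34288073, minus strand): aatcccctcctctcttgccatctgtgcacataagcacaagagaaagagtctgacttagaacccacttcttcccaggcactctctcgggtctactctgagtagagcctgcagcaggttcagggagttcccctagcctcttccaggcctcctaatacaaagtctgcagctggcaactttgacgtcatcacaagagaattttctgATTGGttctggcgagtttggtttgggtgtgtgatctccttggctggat
H2-Eb1 (chr17:34305617-34305866, plus strand): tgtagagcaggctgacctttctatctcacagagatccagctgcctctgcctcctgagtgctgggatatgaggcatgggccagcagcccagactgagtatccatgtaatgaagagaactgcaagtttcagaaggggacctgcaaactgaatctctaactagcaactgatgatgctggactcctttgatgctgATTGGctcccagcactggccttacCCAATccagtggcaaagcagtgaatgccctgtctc
H2-Aa holds 1 match, 48 bases before the start, and H2-Eb1 holds 2, at 59 and 35 bases. CCAAT occurs in 33.8% of the 32851 windows of the table, so a match alone is common. No binding was measured here.

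Apart from Fcrls, the consistent macrophage-type and class II genes above were higher in the macrophages of the same tumours in all 4 tumours. H2-Aa, H2-Ab1 and H2-Eb1 summed in neutrophils to 27.5% of the macrophage level in 2208L, 21.2% in AT3, 41.2% in T11 and 12.1% in E0771 tumours. Apoe stood at 29.4%, 31.6%, 19.1% and 12.9% in the same order, Csf1r at 33.5%, 16.9%, 7.37% and 19.7%, and Lyz2 at 32.3%, 14.3%, 17.1% and 19.3%. Of the 52 higher genes, 22 were below the macrophage level in all 4 tumours, 8 above it in all 4, and 22 were mixed. Of the 51 that could be tested in macrophages, 35 were also higher in macrophages of Epi tumours with both sets of factors, against 21.7% of 1905 genes above the neutrophil background. The part of macrophage RNA in these differences was not tested.

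**Figure D3:**
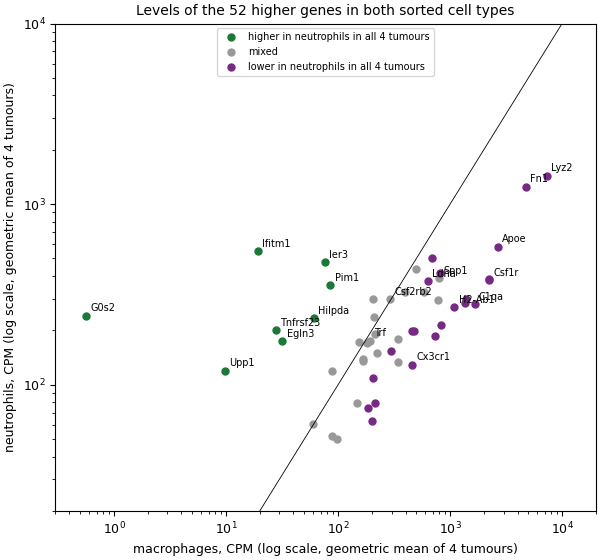
Level of the 52 higher genes in macrophages (x axis) and neutrophils (y axis) as geometric means of the 4 tumours in CPM, on log axes, with the line of equal levels. 8 genes (green), G0s2 and Ifitm1 among them, were higher in neutrophils in all 4 tumours, and 22 genes (purple), Lyz2, Fn1 and Apoe among them, were lower.

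The 8 genes above the macrophage level in all 4 tumours had a median difference of 1.00 with expressed-gene and 1.98 with all-gene factors. G0s2, an inhibitor of the triglyceride lipase Pnpla2, stood at 437, 402 and 248 CPM in the 2208L, 248, 678 and 574 in the AT3, 192, 44.8 and 136 in the T11 and 99.1, 151 and 202 in the E0771 libraries. The Epi libraries were all above the Mes libraries, and the rise was 1.15 ± 0.22 (edgeR adjusted p = 4.95e-04). Ier3, an immediate early gene, stood at 700.2, 709.6 and 666 CPM in the 2208L, 413, 1369.7 and 1096 in the AT3, 218, 189.6 and 208 in the T11 and 291, 448 and 410.0 in the E0771 libraries. AT3 neutrophil 1 lay inside the E0771 range, and the rise was 1.01 ± 0.18. Ifitm1, an interferon-induced membrane protein, stood at 361, 532 and 434 CPM in the 2208L, 1036, 2726 and 1964 in the AT3, 200.2, 81.5 and 159 in the T11 and 494, 750.0 and 964 in the E0771 libraries. Its mean was higher in both C57BL/6 tumours than in both BALB/C tumours, and it rose by 0.98 ± 0.18. Pim1, a kinase that promotes survival downstream of cytokine receptors, rose by 0.91 ± 0.18, Upp1, uridine phosphorylase, by 0.95 ± 0.22, and Tnfrsf23, a decoy receptor for TRAIL, by 0.95 ± 0.21. G0s2 was close to absent from macrophages, at 1.24 CPM in 2208L, 0.283 in AT3, 0.302 in T11 and 0.976 in E0771 tumours. Ifitm1 in macrophages stood at 20.5, 29.8, 7.2 and 30.8 CPM in the same order, and Egln3 at 50.4, 59.3, 10.6 and 32.6. Without E0771 neutrophil 1 or 2 none of the 8 was called with both sets of factors, and without AT3 neutrophil 1 all 8 were.

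Of the genes above background, 10 of 17 in the glycolysis list and 5 of 10 in the hypoxia list rose in Epi neutrophils, against 18.7% of all. Under low oxygen the transcription factor HIF-1 binds DNA with the core ACGTG and raises glycolytic enzymes. Egln3, a prolyl hydroxylase that marks HIF for degradation and is itself a HIF target, stood at 346, 336 and 378 CPM in the 2208L, 114, 597 and 284 in the AT3, 103, 57.1 and 47.4 in the T11 and 89.2, 136 and 115 in the E0771 libraries. AT3 neutrophil 1 lay within the E0771 range and the other 5 Epi libraries above all Mes libraries. The rise was 1.42 ± 0.23 (edgeR adjusted p = 1.46e-04), with 1.54 between 2208L and T11 and 1.30 between AT3 and E0771. Hilpda, a lipid droplet protein induced by hypoxia, stood at 422, 392.3 and 412 CPM in the 2208L, 101, 938 and 371 in the AT3, 176, 75.4 and 119.6 in the T11 and 90.8, 118 and 164 in the E0771 libraries. AT3 neutrophil 1 was again the lowest Epi library, and the rise was 1.29 ± 0.27. Ldha, which turns pyruvate into lactate, stood at 806, 759 and 915 CPM in the 2208L, 304, 820.2 and 581 in the AT3, 253, 69.3 and 169 in the T11 and 231, 242 and 280.4 in the E0771 libraries. The Epi libraries did not overlap the Mes libraries, and the rise was 1.27 ± 0.19. Aldoa, an aldolase, rose by 1.45 ± 0.18, Gapdh by 1.14 ± 0.17, Pkm, pyruvate kinase, by 1.13 ± 0.16 and the glucose transporter Slc2a1 by 0.73 ± 0.17. Aldoa and Ldha were consistent in both strains with both sets of factors, and the other glycolysis genes named were not. The median of the glycolysis list was 0.43 with expressed-gene and 1.40 with all-gene factors, and that of the hypoxia list 0.57 with expressed-gene and 1.53 with all-gene factors. Bnip3l, a mitophagy receptor, rose by 0.80 ± 0.22, and Ankrd37, not above background, by 1.37 ± 0.44. Vegfa, the vascular growth factor, stood at 141, 143 and 148 CPM in the 2208L, 71.1, 182 and 123 in the AT3, 74.3, 48.9 and 66.0 in the T11 and 79.3, 86.7 and 70.1 in the E0771 libraries, and its difference did not pass with expressed-gene factors (0.43 ± 0.19, edgeR adjusted p = 0.0548). Ldha stood below the macrophage level in all 4 tumours, Aldoa was mixed, and Egln3 and Hilpda stood above it. Aldoa and Ldha rose more in neutrophils than in macrophages (difference 1.27, edgeR adjusted p = 4.14e-04 for Aldoa and 0.94, edgeR adjusted p = 0.0115 for Ldha), whereas the difference for Egln3 did not pass (-0.030, edgeR adjusted p = 0.962).

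For the hypoxia and glycolysis genes that were consistent in both strains, the 250 bases before a start are shown with ACGTG on either strand in capitals, from the same RefSeq table and build.
Egln3 (chr12:54203875-54204124, minus strand): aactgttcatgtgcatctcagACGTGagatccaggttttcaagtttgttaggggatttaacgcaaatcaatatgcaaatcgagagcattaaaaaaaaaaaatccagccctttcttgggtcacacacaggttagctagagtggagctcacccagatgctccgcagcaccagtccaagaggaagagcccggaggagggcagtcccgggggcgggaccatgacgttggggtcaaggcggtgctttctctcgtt
Ldha (chr7:46845554-46845803, plus strand): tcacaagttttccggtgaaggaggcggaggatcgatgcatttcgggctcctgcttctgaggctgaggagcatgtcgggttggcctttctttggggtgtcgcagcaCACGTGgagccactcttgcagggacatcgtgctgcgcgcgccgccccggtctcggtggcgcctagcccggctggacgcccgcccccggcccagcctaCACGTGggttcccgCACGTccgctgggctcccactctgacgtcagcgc
Aldoa (chr7:126799255-126799504, minus strand): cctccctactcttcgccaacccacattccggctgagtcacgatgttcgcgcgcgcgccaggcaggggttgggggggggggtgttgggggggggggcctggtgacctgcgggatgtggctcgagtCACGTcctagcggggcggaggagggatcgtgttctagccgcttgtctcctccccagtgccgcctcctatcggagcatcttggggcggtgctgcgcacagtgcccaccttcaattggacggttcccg
The Egln3 window holds 1 match, 229 bases before the start. The Ldha window holds 5 matches, of which 4 form 2 overlapping pairs within CACGTG, the nearest at 34 bases. Aldoa and Ldha have further starts in the table, and the Aldoa window shown, which is not the outermost of its 3, holds 1 match at 126 bases. The outermost Aldoa window holds none, and the innermost holds 1 at 202 bases, and both overlap an annotated exon. The other Ldha window holds none. The outer of the 2 Hilpda windows holds none, and the inner holds 1 at 43 bases but overlaps an annotated exon and is not printed. ACGTG occurs in 16.6% of all windows and in at least 1 window of 18.5% of the 27025 genes of the table. These matches are letters in a sequence, and no binding was measured.

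In the list of Fc and complement receptors 4 of 6 members above background rose in Epi neutrophils, and in the list of the superoxide-producing oxidase and antioxidants 7 of 15, against 18.7% of all genes above background. Fcgr2b, the inhibitory Fc receptor for IgG, stood at 380.1, 418 and 386 CPM in the 2208L, 452, 511 and 331 in the AT3, 90.4, 77.5 and 80.4 in the T11 and 168, 149 and 138 in the E0771 libraries. The groups did not overlap, and the rise was 1.39 ± 0.16 (edgeR adjusted p = 5.33e-06), with 1.43 between 2208L and T11 and 1.36 between AT3 and E0771. Fcgr3, an activating receptor, rose by 1.13 ± 0.16, with overlap because E0771 libraries were as high as the lower 2208L ones, and Fcer1g, the signalling chain of activating Fc receptors, by 0.93 ± 0.15. The median of the receptor list was 0.97 with expressed-gene and 1.92 with all-gene factors. Itgax, CD11c, the fourth receptor gene, rose by 1.01 ± 0.15, with 1.67 between 2208L and T11 and 0.36 between AT3 and E0771. The latter difference did not pass with expressed-gene factors (edgeR adjusted p = 0.407). The Itgax interaction passed with both sets of factors (edgeR adjusted p = 0.00906 with expressed-gene and 0.00923 with all-gene factors). Fcgr2b and Fcgr3 also rose in macrophages of Epi tumours, by 1.84 and 1.96. Neutrophil Fcgr2b stood at 36.8% of the macrophage level in 2208L, 20.7% in AT3, 33.4% in T11 and 17.8% in E0771 tumours. Fcgr3 was above the macrophage level in T11 tumours only. Ncf1 and Ncf4, cytosolic subunits of the NADPH oxidase, rose by 1.26 ± 0.16 and 0.85 ± 0.17, and Cyba, a membrane subunit, by 0.97 ± 0.21. Prdx5, a peroxidase that removes peroxides, stood at 319, 358 and 242 CPM in the 2208L, 262, 606 and 443 in the AT3, 92.0, 28.5 and 66.0 in the T11 and 79.3, 105 and 121 in the E0771 libraries. It rose by 1.71 ± 0.19 (edgeR adjusted p = 3.51e-06) without overlap of the groups. The median of the oxidase and antioxidant list was 0.36 with expressed-gene and 1.33 with all-gene factors. Ptgs1, cyclooxygenase 1, rose by 1.34 ± 0.25, and it rose more in macrophages (4.00, neutrophil minus macrophage difference -2.45, edgeR adjusted p = 1.61e-05). Alox5, 5-lipoxygenase, rose by 0.51 ± 0.19. Of 5 prostaglandin and leukotriene genes above background 3 rose, against 18.7% of all, in a list too short to read a share from.

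Other consistent genes act in signalling, in the cytoskeleton and in growth control. Clec5a, a lectin receptor of myeloid cells, stood at 561, 625 and 464 CPM in the 2208L, 188, 272 and 283 in the AT3, 95.3, 63.2 and 88.7 in the T11 and 71.0, 76.2 and 89.2 in the E0771 libraries. It rose by 1.70 ± 0.16 without overlap. Cd52, a surface glycoprotein of leukocytes, stood at 131, 197 and 132 CPM in the 2208L, 430.0, 423 and 366 in the AT3, 50.0, 26.5 and 51.6 in the T11 and 111, 133 and 170.0 in the E0771 libraries. It rose by 1.23 ± 0.19, and the E0771 libraries overlapped those of 2208L, so the separation was within strains. Csf2rb2, a beta chain of the mouse IL-3 receptor, rose by 1.19 ± 0.17, but reads cannot be assigned with certainty between it and its near copy Csf2rb. Cdkn1a, the cell cycle inhibitor p21, rose by 1.5 ± 0.21, Zfp36l1, an mRNA decay factor, by 1.57 ± 0.20, and Dusp6, a phosphatase of ERK, by 1.07 ± 0.16. Cotl1, Pfn1 and Myl6, which bind actin or form myosin, rose by 1.36 ± 0.18, 0.89 ± 0.17 and 0.89 ± 0.18, and Rhog, a small GTPase, by 0.90 ± 0.18. F11r, a junctional adhesion molecule, rose by 1.28 ± 0.24, Vamp8, a vesicle fusion protein, by 1.27 ± 0.27, and Basp1 by 1.26 ± 0.19. Tpt1 rose by 1.33 ± 0.19, the respiratory subunit Cox4i1 by 0.98 ± 0.20, and the ribosomal protein genes Rpl41 and Rps14, which have processed copies, by 1.26 ± 0.19 and 0.86 ± 0.15. Arg1, arginase, stood at 92.3, 135 and 85.2 CPM in the 2208L, 319, 306 and 213 in the AT3, 53.3, 30.6 and 43.3 in the T11 and 26.4, 7.47 and 59.5 in the E0771 libraries. The groups did not overlap and it rose by 1.79 ± 0.29, but the difference between 2208L and T11 was 0.49 and that between AT3 and E0771 3.09, so it was consistent under all-gene factors only. Wbp5 rose by 1.56 ± 0.29, also consistent under all-gene factors only.

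**Figure D4:**
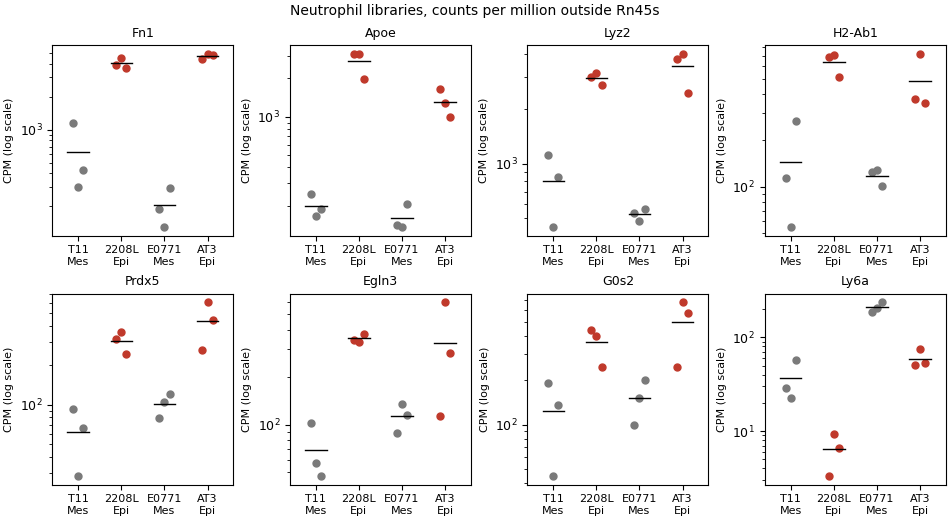
CPM of 8 genes in each neutrophil library on log axes, by tumour, with Epi tumours in red, Mes tumours in grey and the mean of 3 libraries as a line. Fn1, Apoe, Lyz2, H2-Ab1, Prdx5 and G0s2 show 6 Epi libraries above 6 Mes libraries, Egln3 overlaps through AT3 neutrophil 1, and Ly6a is lower in Epi tumours within each strain.

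Of neutrophil recruitment and granule genes above background, 7 of 19 chemoattractant and growth factor receptors and 5 of 11 secondary and tertiary granule genes rose, against 18.7% of all. Csf3r, the G-CSF receptor, stood at 2277, 3204 and 2489.5 CPM in the 2208L, 1303, 3743 and 3185 in the AT3, 2552, 1031 and 1372 in the T11 and 1674, 2286 and 2214 in the E0771 libraries. The groups overlapped, and its difference was 0.054 ± 0.18 with expressed-gene factors (edgeR adjusted p = 0.787). Cxcr2, which reads the neutrophil chemokines, stood at 619, 824 and 641 CPM in the 2208L, 628, 1722 and 1273 in the AT3, 562, 169 and 406 in the T11 and 509, 554 and 701 in the E0771 libraries, and rose by 0.47 ± 0.18 (edgeR adjusted p = 0.0308). Cxcr4, the receptor that retains neutrophils in marrow, had a difference of 0.25 ± 0.17 with expressed-gene factors and did not pass. The median of the receptor list was 0.28 with expressed-gene and 1.22 with all-gene factors. Ltb4r1, the leukotriene B4 receptor, rose by 0.91 ± 0.31, with 0.032 between 2208L and T11 and 1.79 between AT3 and E0771. Fpr2, a formyl peptide receptor, rose by 0.63 ± 0.19, while Fpr1 had 0.45 ± 0.24 and did not pass with expressed-gene factors. S100a8 stood at 800.3, 1246 and 794 CPM in the 2208L, 4599, 7955 and 6382 in the AT3, 802, 318 and 456 in the T11 and 1427, 2042 and 2719 in the E0771 libraries, and rose by 0.75 ± 0.17. Its partner in calprotectin, S100a9, rose by 0.66 ± 0.19. For S100a8 the difference was 0.072 between 2208L and T11 and 1.43 between AT3 and E0771. Mmp9, gelatinase B, stood at 526, 848 and 566 CPM in the 2208L, 166, 588 and 386 in the AT3, 250.2, 118 and 196 in the T11 and 185, 247 and 208 in the E0771 libraries, and rose by 0.80 ± 0.19 (edgeR adjusted p = 0.00168). In macrophages Mmp9 was lower in Epi tumours (log2 -5.11), and the neutrophil minus macrophage difference was 6.11, edgeR adjusted p = 3.40e-11. Macrophage Mmp9 stood at 15.3 CPM in 2208L, 30.6 in AT3, 5975 in T11 and 105 in E0771 tumours. The high T11 level therefore weighs heavily in both values. Lcn2, an iron-binding granule protein that tumour cells also make, stood at 1126, 1053 and 1174 CPM in the 2208L, 144, 445 and 176 in the AT3, 87.2, 44.8 and 55.7 in the T11 and 75.9, 121 and 157 in the E0771 libraries, and rose by 2.13 ± 0.21. Ngp and Hp, further granule proteins, rose by 0.93 ± 0.33 and 0.40 ± 0.17. Their differences were -0.13 and -0.014 between 2208L and T11, and 1.98 and 0.81 between AT3 and E0771. No primary granule gene was above background.

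Il1b, the inflammatory cytokine, stood at 5739.7, 7346 and 5664 CPM in the 2208L, 2772, 7125 and 6954 in the AT3, 3149.8, 1590.0 and 2302 in the T11 and 4405, 5887 and 5744 in the E0771 libraries. The groups overlapped, and the difference of 0.24 ± 0.16 did not pass with expressed-gene factors (edgeR adjusted p = 0.187). In macrophages Il1b was higher in Epi tumours by 2.83, and the neutrophil minus macrophage difference was -2.39, edgeR adjusted p = 2.66e-06. Macrophage Il1b stood at 784 CPM in 2208L, 678 in AT3, 27.3 in T11 and 477 in E0771 tumours. The low T11 level therefore weighs heavily in both values. Ptgs2, cyclooxygenase 2, had 0.080 ± 0.16 in neutrophils and did not pass with expressed-gene factors. Cxcl2, a neutrophil chemokine, rose by 0.87 ± 0.17, with 0.37 between 2208L and T11 and 1.37 between AT3 and E0771. Of 16 cytokine and chemokine genes above background 6 rose, against 18.7% of all genes above background. Nos2, inducible nitric oxide synthase, stood at 210.1, 323 and 222 CPM in the 2208L, 93.3, 328 and 84.3 in the AT3, 72.6, 61.2 and 84.6 in the T11 and 84.2, 133 and 136 in the E0771 libraries, and rose by 0.64 ± 0.24. AT3 neutrophil 1 and AT3 neutrophil 3 lay within the E0771 range, and Nos2 was not consistent in both strains with both sets of factors. Cd274, the checkpoint ligand PD-L1, stood at 558, 608 and 781 CPM in the 2208L, 149, 717 and 401 in the AT3, 244, 153 and 192 in the T11 and 389.7, 587 and 439.8 in the E0771 libraries. Its difference was 0.26 ± 0.20 (edgeR adjusted p = 0.251), with 0.93 between 2208L and T11 and -0.40 between AT3 and E0771, and did not pass with expressed-gene factors. Of 9 checkpoint and costimulatory genes above background 2 rose, near the 18.7% of all genes above background, Havcr2 by 0.65 ± 0.22 and Lgals9 by 0.39 ± 0.16. Lgals9 had 1.06 between 2208L and T11 but -0.28 between AT3 and E0771. Its interaction passed with both sets of factors (edgeR adjusted p = 0.0110 with expressed-gene and 0.0112 with all-gene factors). Of 16 suppressive granulocyte genes above background 7 rose, against the same 18.7%. The list median was 0.19 with expressed-gene and 1.13 with all-gene factors.

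Among the other lists, whose counts stand against 18.7% of all genes above background, 4 of 11 survival and death genes above background rose, with Bcl2a1b, whose near copies share reads, at 1.56 ± 0.28 and Bcl2l1, which encodes Bcl-xL, at 0.81 ± 0.18. Of ER stress and amino acid genes 5 of 12 rose, Xbp1, the transcription factor of the unfolded protein response, by 1.19 ± 0.18. Of myeloid transcription factors, Nfil3 rose by 0.89 ± 0.23 and Klf4, not above background, by 0.98 ± 0.32. Of adhesion molecules and integrins 4 of 9 rose, and Ceacam1, below the background limit, rose by 0.69 ± 0.20. Of AP-1 and immediate early genes 5 of 20 rose, Ier3 and Egr2 (0.81 ± 0.21) among them, and of NF-kB genes 1 of 12. Rel, an NF-kB subunit below the background limit, had 0.24 ± 0.19 and did not pass with expressed-gene factors. Of pattern recognition genes 3 of 14 rose, Tlr1 by 0.49 ± 0.18, and Trem2, a lipid receptor of macrophages below the background limit, by 1.35 ± 0.30. The shares of the AP-1 and the pattern recognition lists lie near that of all genes. The cholesterol synthesis list had 1 and the proliferation list 3 members above background, too few to read a share from, and none of them rose. Lss, a cholesterol synthesis enzyme below the background limit, fell by 1.83, and Sc5d changed sign with the factors (-0.23 with expressed-gene and 0.66 with all-gene factors). Mki67 and Pcna, proliferation genes, had 0.20 ± 0.17 and 0.17 ± 0.24 and did not pass with expressed-gene factors.

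**Figure D5:**
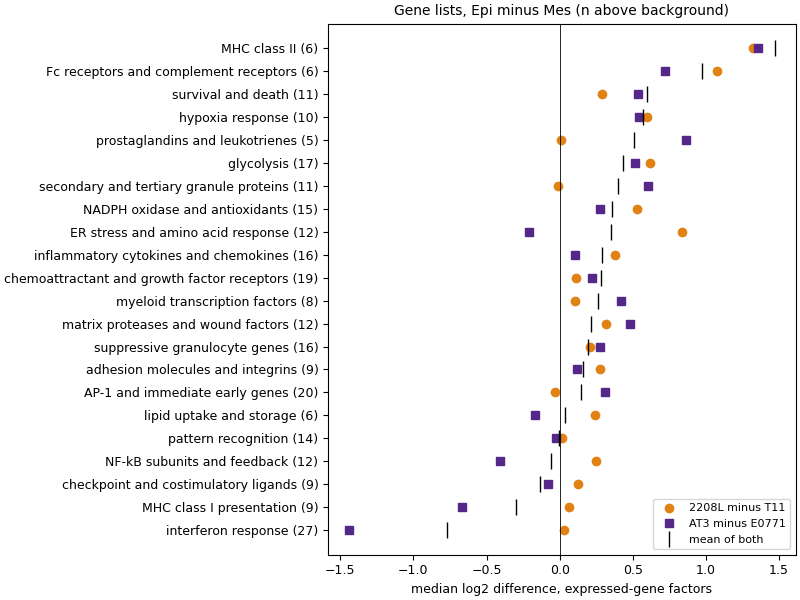
Median log2 difference with expressed-gene factors of the members above background of each pathway list with at least 5 such members, whose number stands in brackets, for 2208L minus T11 (orange circles), AT3 minus E0771 (purple squares) and their mean per gene (black bars). Among these pathway lists MHC class II is highest, at 1.47, and the interferon response list lowest, at -0.77, with 0.033 in the BALB/C pair and -1.44 in the C57BL/6 pair.

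Of the genes above background 22 fell in Epi neutrophils, against the 370 that rose, an imbalance that depends on the genes tested and the factors, as given above. Ly6a, the surface protein Sca-1, stood at 3.33, 9.28 and 6.66 CPM in the 2208L, 50.6, 74.5 and 52.9 in the AT3, 29.1, 22.4 and 57.8 in the T11 and 187, 208 and 236 in the E0771 libraries. The levels were higher in C57BL/6 tumours, so the 6 and 6 libraries overlapped, but within each strain every Epi library was below every Mes library. It fell by 2.61 with expressed-gene factors and by 1.67 with all-gene factors (edgeR adjusted p = 7.24e-07 and 3.79e-05), and it also fell in macrophages (-2.63). Nlrc5, the transactivator of MHC class I genes, stood at 101, 119.8 and 116 CPM in the 2208L, 96.4, 128 and 78.6 in the AT3, 149, 135 and 268 in the T11 and 277, 327 and 229 in the E0771 libraries. All Mes libraries were above all Epi libraries, and it fell by 1.57, but it was consistent in both strains under expressed-gene factors only. The same held for Col6a1, a collagen VI chain, which fell by 1.77, and Ms4a4c, which fell by 1.53. The chemokine Ccl8 fell by 2.13 and Ctsk, cathepsin K, by 2.06, without being consistent in both strains with both sets. Stat2, Igtp and Fasn passed as lower in both strains with expressed-gene factors, at -1.04 ± 0.19, -1.38 ± 0.26 and -1.17 ± 0.15, but with all-gene factors their mean differences were -0.14, -0.48 and -0.24 and did not pass.

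Of 34 listed interferon-stimulated genes 27 were above background, and for most of these the Epi minus Mes difference was not the same in the BALB/C and the C57BL/6 pair of lines. With expressed-gene factors 22 of the 27 passed as lower, against 17.1% of all genes above background, and 0 as higher, and with all-gene factors 5 passed as higher, against 72.2%, and 0 as lower, so none of the 27 rose or fell. The list median was -0.77 with expressed-gene and 0.16 with all-gene factors. With expressed-gene factors it was 0.033 between 2208L and T11 and -1.44 between AT3 and E0771, and with all-gene factors 1.42 and -0.95. The strain interaction passed with both sets of factors for 18 of the 27, against 9.24% of the genes above background. Ifit1, which binds foreign RNA, stood at 236, 337 and 249 CPM in the 2208L, 60.1, 142 and 169 in the AT3, 75.9, 77.5 and 134 in the T11 and 480.5, 617 and 576 in the E0771 libraries. E0771 libraries were the highest, and the difference was 0.70 between 2208L and T11 and -2.37 between AT3 and E0771. Ifit2, of the same family, stood at 103, 171 and 124 CPM in the 2208L, 60.1, 31.2 and 60.0 in the AT3, 58.1, 57.1 and 84.6 in the T11 and 241, 191 and 208 in the E0771 libraries, with E0771 again highest. Ifitm3 and Oasl2 had mean differences of 0.20 ± 0.16 and 0.066 ± 0.19 and did not pass with expressed-gene factors. Of 9 MHC class I genes above background none rose and Nlrc5 fell. Of all genes above background 18.7% rose and 1.11% fell, and nothing is read from counts in so short a list. The class I genes Psmb8 and Psme1 had 0.23 ± 0.22 and 0.13 ± 0.40 and did not pass with expressed-gene factors.

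With all-gene factors 19 genes, after the filters on level, background and names, passed in both strains with opposite signs and in the interaction. For 15 of them the interaction passed with both sets of factors. S100a4, a calcium-binding protein of motile cells, stood at 5.56, 4.22 and 2.66 CPM in the 2208L, 339.9, 365 and 294 in the AT3, 84.0, 38.7 and 74.3 in the T11 and 59.4, 70.2 and 85.0 in the E0771 libraries. It was lowest in 2208L and highest in AT3, with -4.69 between 2208L and T11 and 2.08 between AT3 and E0771. The heat shock chaperone of collagen Serpinh1 stood at 82.2, 58.2 and 53.3 CPM in the 2208L, 34.8, 46.3 and 38.6 in the AT3, 12.9, 14.3 and 18.6 in the T11 and 178, 182 and 183 in the E0771 libraries. It was higher in 2208L than T11 and highest in E0771. Lgals3bp, a secreted galectin ligand, stood at 519, 605 and 364 CPM in the 2208L, 79.1, 132 and 84.3 in the AT3, 116, 75.4 and 134 in the T11 and 353, 365 and 321 in the E0771 libraries, with the same order of signs. Tm4sf1, a tetraspanin-like protein of epithelium and vessels, Cfb, complement factor B, and Ano1, a chloride channel, were also higher in 2208L than T11 (by 1.61, 0.89 and 0.67) and lower in AT3 than E0771 (-1.43, -1.49 and -1.51). Among the 8 largest S100a4 had the opposite order of signs.

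Set against macrophages of the same tumours, the Epi minus Mes difference differed between the cell types, with both sets of factors, for 12.5% of the genes above the neutrophil background. Among the 52 higher genes it was larger in neutrophils for 13 and larger in macrophages for 2, Ptgs1 and Fcrls. Beside Aldoa and Ldha the 13 included Upp1 (2.25, edgeR adjusted p = 6.58e-04), Cdkn1a (1.48, edgeR adjusted p = 7.47e-04) and Zfp36l1 (1.38, edgeR adjusted p = 0.00117). The others were Fcer1g, Rpl41, Pfn1, Tpt1, Rps14, Vamp8, Cox4i1 and Cyba. Neutrophil and macrophage columns of a tumour carry the same numbers, and whether these mark shared mice is not given in the sources used here. With the libraries of 1 number as a block, 12.5% of the genes differed, and 12 of the 13 and both Ptgs1 and Fcrls were called again, whereas Cyba was not (edgeR adjusted p = 0.0697). In the cultured lines, fitted with all-gene factors, 42 of the 52 could be tested, and 14 were higher and 12 lower in the Epi lines. Of all genes above the neutrophil background that could be tested there, 26.6% were higher and 32.6% lower. Fn1 was higher in the Epi lines by 4.22 and Spp1 by 2.34, Apoe was lower (-0.65), and Ldha and Aldoa were lower (-0.80 and -0.85). The part of tumour cell RNA in the neutrophil libraries was not tested.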

How the data were processed

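RNA was measured in 48 libraries, and 12 of them, neutrophils of 4 tumours, are reported, with macrophages and cultured lines for comparison. The values are raw counts, which the authors deposited as a single table of 24054 genes. Reads were aligned to mm10 with STAR 2.4.2a after bcl2fastq 2.17, per the submitters' processing notes; the counting program, its annotation and the use of strand are not given in the sources used here, so overlapping genes cannot be separated. Groups come from the titles, and Epi and Mes from the column names. 3 columns whose names match no title were not used. Rn45s was taken out before library sizes. Exon lengths and types came from GENCODE M21 (22753 symbols matched directly, 904 by synonym, 397 not).

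edgeR 4.0.16 (R 4.3.3) fitted the 12 neutrophil libraries by group, scaled by TMM and filtered by filterByExpr at a minimum count of 10 and a total of 15. Quasi-likelihood p-values of the 17202 genes were adjusted by Benjamini-Hochberg. Counts of 470712 to 1185233 per library limit the precision of low genes. Replicates differed by more than counting error (chi-square per degree of freedom 1.55 to 10.8). Macrophages, lines and the 24 sorted libraries were fitted in the same way. Sums per library were compared by exact permutation within strains on log2(CPM + 1), over 19 sums, 2 of them (C1q and the share above background) added after values were seen. On simulated counts for Epi against Mes neutrophils (16301 genes), 70 of 100 genes changed by log2 1 and 100 of 100 changed by log2 2 were called, and 9 and 87 as consistent. Apart from the changed genes, the simulated tumours shared the same profile, with a common dispersion of 0.064, and all-gene factors were used. The simulation held no background difference between tumours, so these rates do not carry over to calls with both sets of factors. DESeq2 1.42.0 and the other alternatives are described at the end. Summaries were made in Python 3.11.15 (pandas 2.3.3).

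The members and lists were chosen with earlier results of these data known. The rule for named genes takes the 12 higher and 12 lower consistent genes with the largest mean difference, a mean log2 CPM of at least 4, above background and without overlap of the 6 and 6 libraries; up to 4 consistent members of each of 25 lists, else up to 2 that pass; 13 genes named in advance, of which Siglecf was not tested; and the 8 largest interactions with opposite signs. The rule also names 1 gene that is left out of the text. The requirement of both sets of factors, the expressed-gene factors for left-out libraries, the block of same-numbered sorts of a tumour, and all other genes named (the consistent genes above background, Cd74, Lcn2, Emr1, Slc2a1, Gapdh, Pkm and the lower genes) were chosen after values were seen.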

Additional observations from a re-analysis of the deposited data

Results flagged for a closer look

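The difference between 2208L and T11 neutrophils differed from that between AT3 and E0771 neutrophils for the 8 genes with the largest opposite differences, by the interaction term of the edgeR quasi-likelihood test with both sets of factors. These 8 were chosen by that term with all-gene factors, so their passing it with those factors is no independent support. With all-gene factors the BALB/C minus the C57BL/6 difference, on the log2 scale, was -5.83 for S100a4, which was lower in 2208L and higher in AT3. It was positive for the other 7, Serpinh1 (4.55), Lgals3bp (4.28), Tm4sf1 (4.04), Ifit1 (3.98), Cfb (3.50), Ifit2 (3.50), Ano1 (3.34). Ifit1 and Ifit2 belong to the interferon list, in which 18 of the 27 members above background passed the same test, against 9.24% of the genes above background.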

How the results depend on the processing

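The count of genes past the threshold was 4984 for the mean difference, 5952 for 2208L against T11, 782 for AT3 against E0771 and 1633 for the strain interaction. In that order it was 10784, 12351, 450 and 3374 with factors from genes above background, 1599, 1673, 474 and 698 where only those genes were tested, 593, 525, 347 and 283 with both choices, and 3187, 3491, 401 and 827 with the 24 sorted libraries fitted together. Among the consistent genes (368), the last 2 settings gave 108 and 230. Requiring only the mean to pass, with 1 sign in both strains, gave 4691, and requiring separate libraries as well gave 213. The split of higher and lower genes for the mean difference was 2953 and 2031, 419 and 10365 with expressed-gene factors and 308 and 285 with the tests restricted as well, and for consistent genes 277 and 91, 58 and 214 and 80 and 28. The cause of these shifts was not tested beyond the medians given above.

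Leaving out 1 library at a time gave 3675 to 6952 genes for the mean difference, 3399 to 7188 for 2208L against T11, 209 to 2691 for AT3 against E0771, 694 to 3804 for the interaction, 108 to 1494 consistent genes with all-gene factors (main 368), 68 to 4034 with expressed-gene factors (main 272), 16 to 122 with both sets above background (main 53) and 985 to 2218 for the neutrophil minus macrophage difference (main 1365). The highest counts of consistent genes came without AT3 neutrophil 1, and the lowest without E0771 neutrophil 1 or, for expressed-gene factors and for both sets, also E0771 neutrophil 2. Replicate numbers did not pair the samples: 4 of 18 same-numbered pairs had a correlation of deviations over 0.1 (-0.34 to 0.29). Between the neutrophil and macrophage libraries of a tumour with the same number in their column names, 2 of 12 pairs had a correlation over 0.1 (-0.089 to 0.17), so a pairing was not shown. With these as a replicate block within each tumour 1198 genes passed in the neutrophil minus macrophage difference. With the replicate block 4665 genes passed in the mean difference, and 34 were consistent with both sets of factors above background. DESeq2 called 4238 and 345 genes in the mean difference and as consistent.

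The 52 higher genes kept their sign and their call in the mean difference under every alternative run for them. As they were chosen by that call in these same libraries, this is no independent support. Their call as consistent in both strains with both sets of factors was not kept. Without E0771 neutrophil 1 or 2 it held for 15 of them, and with the replicate block for 33. With factors from genes above background the sign reversed for Ano1 (-0.42), Cfb (-0.30), Emr1 (-0.085), Ifit1 (-0.84), Lgals3bp (-0.30), Sc5d (-0.23) and Serpinh1 (-0.54). It reversed without factors for Ifit1 (-0.32) and Serpinh1 (-0.040), and for S100a4 in the additive model (0.28). Low genes are limited by 470712 to 1185233 counts per library and by the receptor background, which took 0.379% to 1.86% of them.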
